A study of Mus musculus with 36 samples.

Results

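S100 genes encode small calcium-binding proteins of the EF-hand type. Most work as dimers that change shape when calcium binds and then attach to target proteins, among them annexins, cytoskeletal proteins and enzymes. S100A8 and S100A9 together form calprotectin, which neutrophils carry in large amounts. S100B is a glial protein, and S100A10 is the partner of annexin A2 at the cell membrane. The genes described here are the 10 named members S100a1, S100a4, S100a6, S100a8, S100a9, S100a10, S100a11, S100a13, S100a16 and S100b, chosen by name from the 22558 genes listed in each of 2 expression tables.

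The study gave C57BL/6 mice roxadustat, DMOG or PBS, and its title places the work in retinopathy of prematurity. Both drugs inhibit the prolyl hydroxylases that mark the transcription factor HIF for destruction, and PBS is the buffered saline control. Total RNA was sequenced from 36 libraries, 6 per treatment for each of the labels liver and retina, and all groups share the C57BL/6 background. The labels give neither dose, time nor age, and do not say whether libraries are separate animals, and every p-value here therefore reflects library-to-library spread, which may be technical. Levels are in FPKM, fragments scaled to transcript length and to library size, by a rule that the sources used here do not give. The libraries labelled liver held a retinal transcriptome. Over 11 retinal marker genes their summed level was 10060 to 17650 FPKM, against 2.38 to 3.82 FPKM in the libraries labelled retina. Over 11 hepatocyte marker genes the sum was 30.4 to 177 FPKM in the libraries labelled liver, nearly all of it from Ttr, and 26880 to 47000 FPKM in those labelled retina. Of these 11 hepatocyte genes, 2 are listed at 0 in every library labelled retina, Alb among them. The 2 sets are called retina RNA (labelled liver) and liver RNA (labelled retina) from here on. Libraries were called female or male by the level of Xist against Y-linked genes, and every group held both. Retina RNA had 3 female and 3 male libraries with roxadustat, 2 and 4 with DMOG, and 3 and 3 with PBS. Liver RNA had 1 female and 5 male libraries with roxadustat, 4 and 2 with DMOG, and 3 and 3 with PBS. The sexes were therefore not balanced between treatments.

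The HIF response was visible in both sets. Of 25 HIF target genes tested in liver RNA, 19 rose with roxadustat and 22 with DMOG. Of 24 tested in retina RNA, 17 rose with roxadustat and 6 with DMOG. None of these targets fell. Over all genes tested, 2.16% rose with roxadustat and 8.26% with DMOG in liver RNA. In retina RNA the shares were 1.69% and 0.37%. Genes are called here at an adjusted p under 0.05 in limma, with Benjamini-Hochberg adjustment over all genes tested, on log2(FPKM + 0.5), a scale that understates the change of genes near 0. A gene was tested where its level averaged 0.5 FPKM or more across the 18 libraries in a set. All 10 S100 members passed in retina RNA and 9 in liver RNA, where S100b did not.

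Most S100 members were present in both tissues, and S100a8, S100a9 and S100b were near 0 in one of them. In PBS libraries of retina RNA, S100a10 was highest, with a median of 51.0 FPKM (41.9 to 88.9), followed by S100a16 with 26.95 FPKM (21.6 to 30.6). S100a1, S100a6, S100a4, S100a11 and S100b came next, from 18.6 down to 7.21 FPKM, and the PBS ranges of each neighbouring pair in this stretch overlapped. S100a13 had 3.66 FPKM, overlapping S100b but not S100a8. S100a8 and S100a9 were near the bottom, with medians of 0.183 and 0.0479 FPKM.

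In PBS libraries of liver RNA the order was led by the calprotectin pair. S100a8 had a median of 494 FPKM (360 to 837) and S100a9 one of 402 FPKM (311 to 698), and their ranges overlapped each other but no other member. S100a10 had 62.8 FPKM and S100a1 37.4 FPKM, each apart from its neighbours. S100a16 (25.4 FPKM) overlapped S100a11 (25.4 FPKM), and S100a6 (10.3 FPKM) overlapped S100a13 (10.1 FPKM). S100a4 had 6.09 FPKM, and S100b was lowest with 0.0827 FPKM.

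Set side by side in PBS, the 2 tables were normalised separately, so these ratios are descriptions with no test. S100b averaged 7.75 ± 3.06 FPKM in retina RNA and 0.0750 ± 0.0296 FPKM in liver RNA (SD, n = 6 each), 103-fold more in retina RNA. S100a8 and S100a9 were far lower there, at 0 to 0.377 and 0 to 0.542 FPKM in retina RNA against 360 to 837 and 311 to 698 FPKM in liver RNA. S100a1, S100a11 and S100a13 had ratios of retina RNA to liver RNA of 0.480, 0.356 and 0.352, with ranges that did not overlap. S100a10 and S100a16 had ratios of 0.880 and 1.06, with overlapping ranges. S100a4 and S100a6 had ratios of 3.00 and 1.88, also with overlapping ranges, in PBS libraries that are rich in lens RNA. In DMOG libraries their order was turned, with S100a4 at 2.55 ± 0.492 FPKM in retina RNA and 7.83 ± 2.78 FPKM in liver RNA, and S100a6 at 7.30 ± 1.67 and 14.6 ± 3.53 FPKM (SD, n = 6 each).

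**Figure D1:**
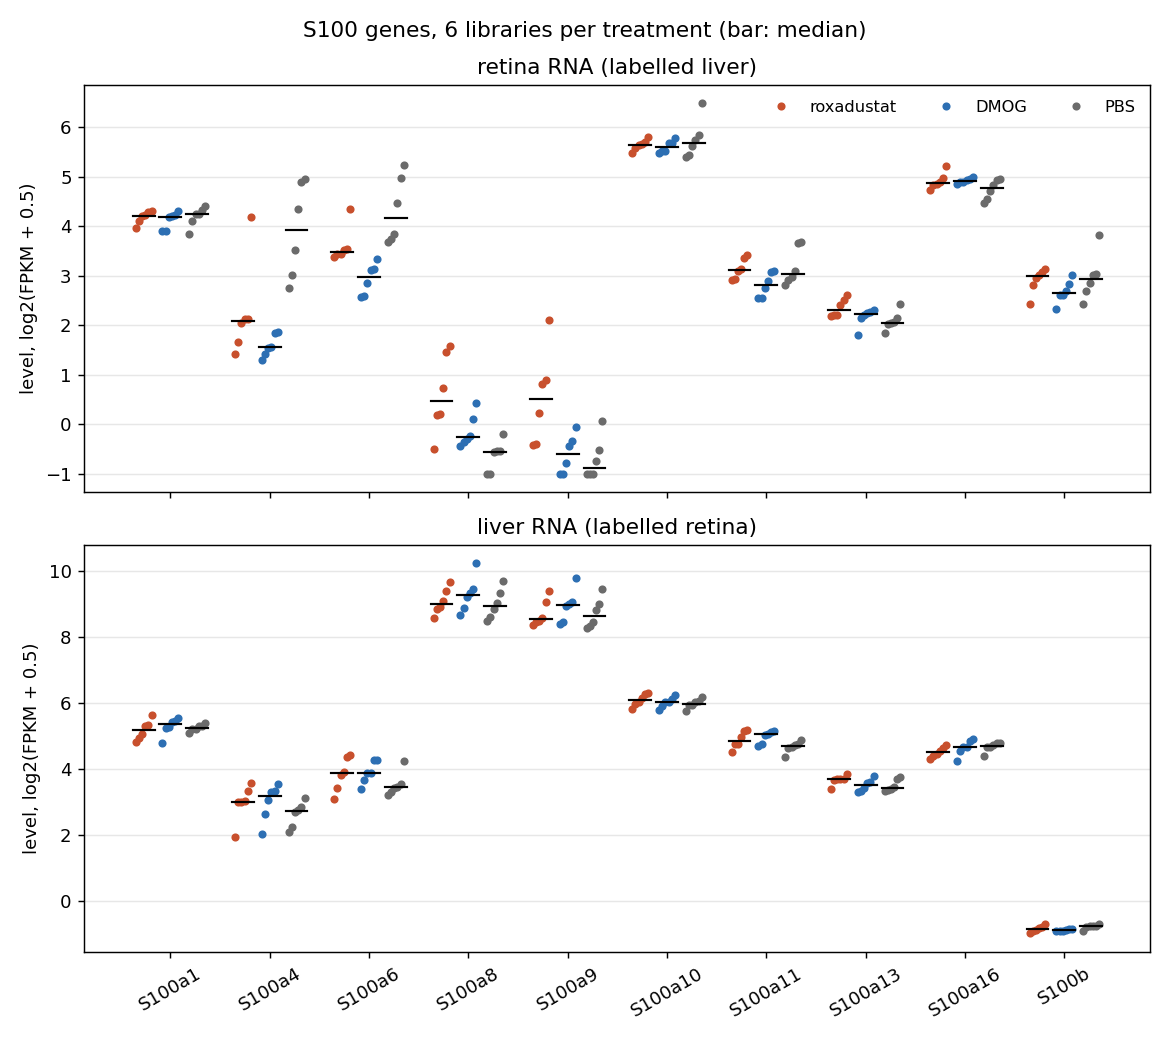
Level of each S100 member as log2(FPKM + 0.5) in every library, retina RNA above and liver RNA below. Points are libraries (6 each for roxadustat, DMOG and PBS, left to right) and bars are medians. In retina RNA the PBS points of S100a4 and S100a6 lie above every DMOG point, and 1 roxadustat library lies among the PBS points.

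Few S100 genes differed between treatments, and the calls within a tissue were in retina RNA, where lens RNA also differed between treatments. With DMOG, S100a4 and S100a6 fell. With roxadustat, S100a4 fell and S100a8 was called higher, with medians of 0.910 FPKM with roxadustat and 0.183 FPKM with PBS. S100a8 passed the filter only through the roxadustat libraries, and its call was lost in some settings given below. The other members were not called in any comparison of treatments within a tissue. S100A4 is a regulator of cell movement known from fibroblasts and metastatic cells, and S100A6 (calcyclin) is common in growing cells, fibroblasts and epithelia.

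S100a4 in retina RNA had 2.18 to 17.6 FPKM with roxadustat (median 3.76), 1.96 to 3.16 FPKM with DMOG (median 2.44) and 6.24 to 30.6 FPKM with PBS (median 15.4). The DMOG and PBS libraries did not overlap. Of the roxadustat libraries, replicate 1, with 17.6 FPKM, lay inside the PBS range and the other 5 lay below it. On the log2 scale S100a4 fell by 2.33 with DMOG (SE 0.42, adjusted p = 0.00934 in limma), lower in 6 of 6 libraries than the PBS mean, and by 1.65 with roxadustat (SE 0.42, adjusted p = 0.0398), lower in 5 of 6. Roxadustat against DMOG was 0.67 (SE 0.42, adjusted p = 0.594). The roxadustat call for S100a4 was lost on leaving out any 1 of PBS replicates 1, 2 and 6, DMOG replicates 2, 4, 5 and 6, or roxadustat replicates 2, 3, 4, 5 and 6, with adjusted p from 0.0502 to 0.107.

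S100a6 in retina RNA had 9.98 to 19.96 FPKM with roxadustat (median 10.6), 5.47 to 9.60 FPKM with DMOG (median 7.44) and 12.3 to 37.0 FPKM with PBS (median 17.8). The DMOG libraries lay below every roxadustat and every PBS library. The roxadustat libraries other than replicate 1 lay between the other groups. S100a6 fell by 1.39 on the log2 scale with DMOG (SE 0.25, adjusted p = 0.00934). With roxadustat the value was -0.71 (SE 0.25, adjusted p = 0.137), not called, and roxadustat against DMOG was 0.68 (SE 0.25, adjusted p = 0.279), also not called.

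Lens genes moved with these values. Over the 12 genes of an anterior eye and lens list, the summed level in retina RNA was 231 to 11265 FPKM with roxadustat, 16.6 to 951 FPKM with DMOG and 2109 to 23197 FPKM with PBS. The sum came from lens fibre genes such as Cryaa, Crygs, Crybb2 and Mip, while the corneal markers Krt12, Krt5, Krt14 and Aldh3a1 had medians under 1 FPKM. Of the 8 list genes tested, 8 fell with DMOG (median log2 fold change -5.51, against 0.01 over all genes) and 2 fell with roxadustat (median -3.13, against -0.00 over all genes). Over all genes, 0.697% were called lower with DMOG and 0.653% with roxadustat. The 7 libraries highest in the lens sum, 6 PBS libraries and roxadustat replicate 1, were also the 7 highest in S100a4 and the 7 highest in S100a6. Their 4 highest, in order, were the same for the lens sum, S100a4 and S100a6: PBS replicates 2, 1 and 6 and roxadustat replicate 1.

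With the log2 lens sum as a covariate, an alternative chosen after seeing the data, S100a4 was -0.58 with DMOG (SE 0.49, adjusted p = 1.00 in limma) and -0.65 with roxadustat (SE 0.37, adjusted p = 0.575). S100a6 was then -0.40 with DMOG (SE 0.31, adjusted p = 1.00). That fit called 1 gene of all those tested with DMOG, against 147 without the covariate, and the covariate itself differed between the groups. Lens RNA and treatment therefore cannot be told apart for S100a4 and S100a6 in DMOG against PBS. Without roxadustat replicate 1, S100a4 had a value of -2.04 with roxadustat (SE 0.33, adjusted p = 0.00137). The lens sums of the remaining roxadustat libraries, 913 FPKM or less, then lie below those of every PBS library, 2109 FPKM or more, so lens RNA and roxadustat cannot be told apart there either. In bulk RNA, fewer cells of a type and less RNA per cell cannot be told apart.

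**Figure D2:**
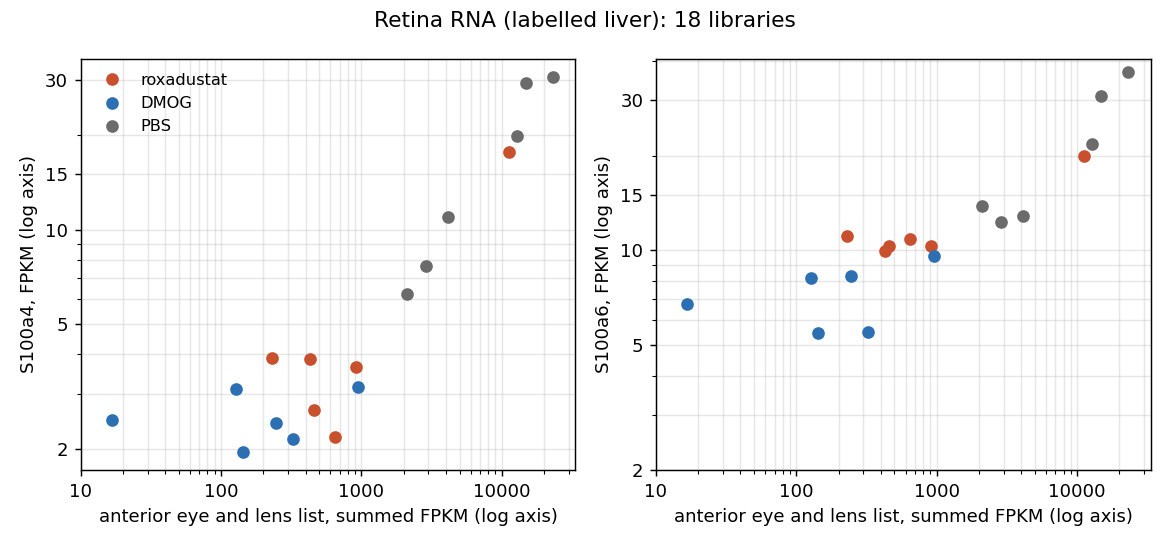
S100a4 (left) and S100a6 (right) in FPKM against the summed level of the anterior eye and lens list in FPKM, both axes logarithmic, for the 18 libraries of retina RNA. Each point is a library, coloured by treatment. The PBS libraries and 1 roxadustat library have lens sums of 2109 FPKM or more and the highest S100a4 and S100a6. Among the libraries below that sum, S100a6 was 9.98 to 11.1 FPKM with roxadustat and 5.47 to 9.60 FPKM with DMOG.

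By correlation of log2 levels over the 18 libraries of retina RNA, the tested genes most like S100a4 were Pgam2 (r = 0.976), Pgm5 (r = 0.975) and Gcg (r = 0.973). For S100a6 they were Gsn (r = 0.955), Pgm5 (r = 0.952) and Rasl11b (r = 0.952). Pgam2 encodes the muscle form of phosphoglycerate mutase, and Gsn encodes the actin-severing protein gelsolin. These libraries share the lens difference described above, so r is given as a description.

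The 2 genes that fell together are shown here by their promoters, 250 bases before to 50 after the RefSeq start, mouse build GRCm38.p6, in lower case. Capitals mark matches to TATAAA or to the HIF-site cores ACGTG and GCGTG, searched on both strands. S100a4 lies at chr3:90603520-90603819 on the plus strand and S100a6 at chr3:90612644-90612943 on the plus strand.
S100a4: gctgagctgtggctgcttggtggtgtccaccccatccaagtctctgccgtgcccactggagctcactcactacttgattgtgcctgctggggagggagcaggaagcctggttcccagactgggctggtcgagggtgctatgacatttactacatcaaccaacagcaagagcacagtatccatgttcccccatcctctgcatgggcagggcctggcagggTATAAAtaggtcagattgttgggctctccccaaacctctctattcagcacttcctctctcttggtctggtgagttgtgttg
S100a6: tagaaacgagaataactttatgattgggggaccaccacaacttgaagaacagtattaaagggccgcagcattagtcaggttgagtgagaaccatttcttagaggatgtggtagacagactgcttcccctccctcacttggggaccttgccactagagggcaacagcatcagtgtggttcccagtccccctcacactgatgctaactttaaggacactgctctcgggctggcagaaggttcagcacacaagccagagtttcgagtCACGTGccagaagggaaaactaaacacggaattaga
The S100a4 window holds TATAAA, 31 bases before the start, and no HIF-site core. The S100a6 window holds CACGTG just after the start, where ACGTG is read on both strands and overlaps the E-box of the same letters. Of the 32851 promoters in the RefSeq table, 43.8% hold ACGTG or GCGTG and 13.6% hold TATAAA. Sequences were found for 9 of the 10 members.

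S100a8 was the other called member in retina RNA. It had 0.212 to 2.48 FPKM with roxadustat (median 0.910), 0.240 to 0.842 FPKM with DMOG (median 0.333) and 0 to 0.377 FPKM with PBS (median 0.183), where 2 libraries are listed at 0. Roxadustat replicates 1, 2 and 3, with 1.16, 2.26 and 2.48 FPKM, were the highest libraries, and the lowest roxadustat library overlapped the PBS range. S100a8 rose by 1.25 on the log2 scale with roxadustat (SE 0.28, adjusted p = 0.0189 in limma), with 6 of 6 roxadustat libraries above the PBS average. With DMOG it was 0.51 (SE 0.28, adjusted p = 0.429). S100a8 passed the filter on low values through the roxadustat libraries, and without any filter its adjusted p was 0.0300. Without roxadustat replicate 2 it was 0.0545, and with only the roxadustat and PBS libraries fitted it was 0.0661. S100a8 fell under the filter without roxadustat replicate 3.

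S100a9, its partner in calprotectin, had 0.247 to 3.83 FPKM with roxadustat (median 0.960), 0 to 0.468 FPKM with DMOG (median 0.161) and 0 to 0.542 FPKM with PBS (median 0.0479). It is listed at 0 in 2 DMOG and 3 PBS libraries. The value with roxadustat was 1.24 (SE 0.34, adjusted p = 0.0585), not called, and with DMOG 0.10 (SE 0.34, adjusted p = 0.915). S100a9 averaged 0.530 FPKM over the 18 libraries and passed the filter on low values through the roxadustat libraries. It fell under the filter without roxadustat replicate 1, 2 or 3, and with no filter its adjusted p was 0.0881. In the other settings that left out 1 library its adjusted p ran from 0.0294 to 0.120, under the threshold without PBS replicate 5 or roxadustat replicates 4 or 5. The files give no read counts, so no counting interval can be set on such low values. The steps of the lowest values give a relative sequencing depth of 1.05 ± 0.151 for roxadustat, 1.09 ± 0.139 for DMOG and 0.860 ± 0.0260 for PBS libraries of retina RNA (SD, n = 6 each), lowest on average in PBS, although the lowest single library, at 0.781, was a roxadustat one.

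Neutrophil genes were scarce in retina RNA. Of 19 neutrophil markers, 16 had a median under 1 FPKM there, Elane and Fcnb are listed at 0 in all 18 libraries, and 4 could be tested. None of the 4 was called with either drug. Over all genes, 2.34% were called with roxadustat and 1.07% with DMOG, so nothing is read from 0 of 4. The summed level of the list was 5.65 to 7.97 FPKM with roxadustat, 6.18 to 8.32 FPKM with DMOG and 6.78 to 9.50 FPKM with PBS. The tested genes most like S100a8 over the 18 libraries were 4930455C21Rik (r = 0.876), Neurog2 (r = 0.867) and Cth (r = 0.839). Neurog2 encodes a transcription factor of neural progenitors, and Cth encodes an enzyme that makes cysteine.

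The remaining members of retina RNA were not called. S100a16 had 25.9 to 36.7 FPKM with roxadustat, 28.4 to 31.6 FPKM with DMOG and 21.6 to 30.6 FPKM with PBS, with log2 fold changes of 0.18 (adjusted p = 0.274 in limma) and 0.18 (adjusted p = 0.348). S100a13, which takes part in the release of FGF1 from cells, was 0.26 with roxadustat (SE 0.10, adjusted p = 0.184) and 0.07 with DMOG. S100a11, a partner of annexins, was -0.05 with roxadustat and -0.37 with DMOG (SE 0.15, adjusted p = 0.283). S100a10 was -0.11 and -0.15, and S100a1, best known from heart muscle, was -0.02 and -0.08, with roxadustat and with DMOG. The RefSeq promoter windows of S100a1 and S100a13 overlap on opposite strands. Whether reads were counted by strand is not given in the sources used here, so the split between these genes is uncertain.

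S100b had 4.90 to 8.26 FPKM with roxadustat, 4.51 to 7.60 FPKM with DMOG and 4.86 to 13.6 FPKM with PBS, and its groups overlapped. The log2 fold changes were -0.07 with roxadustat (SE 0.18, adjusted p = 0.892 in limma) and -0.29 with DMOG (SE 0.18, adjusted p = 0.470). Of 14 Mueller glia and astrocyte markers tested, 0 were called with either drug. Over all genes, 2.34% were called with roxadustat and 1.07% with DMOG, so nothing is read from 0 of 14. The genes most like S100b over the 18 libraries were Kank4 (r = 0.939), Sparcl1 (r = 0.915) and Armcx1 (r = 0.915), named although S100b itself was not called.

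In counts, 2 of the 10 members tested in retina RNA were called with roxadustat, against 2.34% of all genes tested. These were S100a4, lower, and S100a8, higher, and S100a8 entered the test only through the libraries where it is high, so nothing is read from this count. With DMOG 2 of 10 were called, both lower, against 1.07% of all genes called in either direction and 0.697% called lower. These were S100a4 and S100a6, for which lens RNA and DMOG cannot be told apart, so this count is not read as a trait of the family. In roxadustat against DMOG, 0 of 10 were called, against 1.31% of all genes. An unadjusted p under 0.05 was reached by 6 of 10 members with roxadustat (2409 of 13779 genes), by 4 with DMOG (1892 genes) and by 4 in roxadustat against DMOG (1503 genes). Both counts that involve roxadustat include S100a8 and S100a9, which passed the filter only through the roxadustat libraries. The DMOG count includes S100a4 and S100a6, where lens RNA and treatment cannot be told apart. Nothing is read from these 3 counts. The median log2 fold change of the 10 members was -0.03 with roxadustat and -0.11 with DMOG, against -0.00 and 0.01 over all genes. The 2 comparisons with PBS share their PBS libraries.

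**Figure D3:**
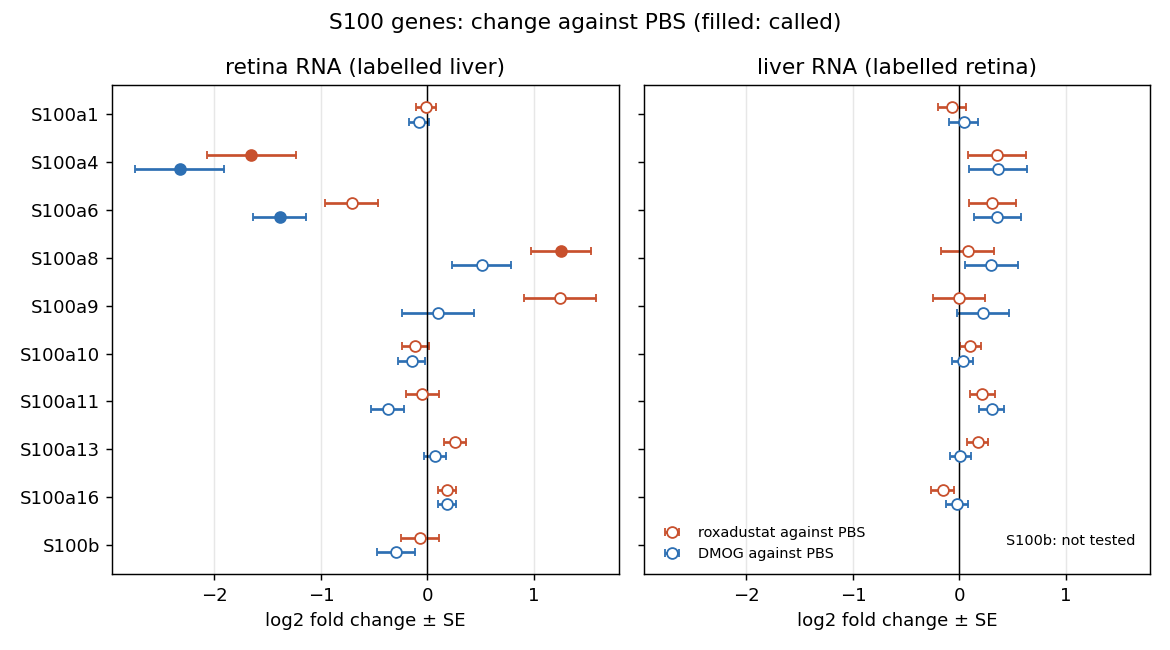
Log2 fold change against PBS with its standard error for each S100 member, retina RNA on the left and liver RNA on the right. Orange points are roxadustat and blue points DMOG, and filled points passed the adjusted threshold. The 4 filled points, S100a4 with both drugs, S100a6 with DMOG and S100a8 with roxadustat, are all in retina RNA.

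In liver RNA no S100 member passed the test. With roxadustat 0 of 9 members were called in limma, against 4.19% of all genes tested, and 0 had an unadjusted p under 0.05. With DMOG 0 of 9 were called, against 20.0% of all genes, and 1 had an unadjusted p under 0.05. In roxadustat against DMOG 0 of 9 were called, against 2.99% of all genes, with 0 at an unadjusted p under 0.05. The member medians were 0.10 with roxadustat and 0.22 with DMOG, against -0.00 and 0.01 over all genes. With DMOG 8 of 9 members had a positive value, and with roxadustat 6 of 9.

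S100a8 in liver RNA had 386 to 811 FPKM with roxadustat (median 514), 404 to 1217 FPKM with DMOG (median 625.0) and 360 to 837 FPKM with PBS (median 494). S100a9 had 328 to 671 FPKM with roxadustat (median 372), 339 to 895 FPKM with DMOG (median 504) and 311 to 698 FPKM with PBS (median 402). All groups overlapped, with DMOG replicate 2 the highest library for both genes. The log2 fold changes of S100a8 were 0.08 with roxadustat (SE 0.25, adjusted p = 0.902 in limma) and 0.30 with DMOG (SE 0.25, adjusted p = 0.405). Those of S100a9 were -0.00 with roxadustat (SE 0.24, adjusted p = 1.00) and 0.22 with DMOG (SE 0.24, adjusted p = 0.528).

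The calprotectin genes kept a nearly fixed ratio across these libraries. S100a8 varied 3.38-fold and S100a9 2.88-fold between their lowest and highest libraries, while S100a8 over S100a9 stayed between 1.16 and 1.42, with a coefficient of variation of 6.16%. Both followed other neutrophil genes. The neutrophil list without Lcn2, which also belongs to the acute phase list, summed to 269 to 607 FPKM with roxadustat, 279 to 808 FPKM with DMOG and 276 to 635 FPKM with PBS. The 3 highest libraries for this sum, DMOG replicate 2, PBS replicate 1 and roxadustat replicate 1, were in the same order the 3 highest for S100a8 and for S100a9. The genes most like S100a8 were BC100530 (r = 0.983), S100a9 (r = 0.982) and Stfa1 (r = 0.977) over 18 libraries, named although S100a8 was not called. BC100530 and Stfa1 belong to the stefin A cluster, whose near-identical copies can share reads.

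Of the 19 neutrophil markers, all tested in liver RNA, 0 were called with roxadustat and 1, Lcn2, rose with DMOG (log2 fold change 1.75, SE 0.44, adjusted p = 0.00989 in limma). These are 0% and 5.26% of the list, against 4.19% and 20.0% of all genes called. Lcn2 encodes lipocalin 2, which hepatocytes also make in the acute phase. The list medians were -0.01 with roxadustat and 0.24 with DMOG. With the log2 neutrophil sum as a covariate, an alternative chosen after seeing the data, S100a8 was 0.11 with roxadustat (SE 0.08, adjusted p = 0.485) and 0.12 with DMOG (SE 0.08, adjusted p = 0.311). S100a9 was then 0.03 and 0.05, with roxadustat and with DMOG.

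**Figure D4:**
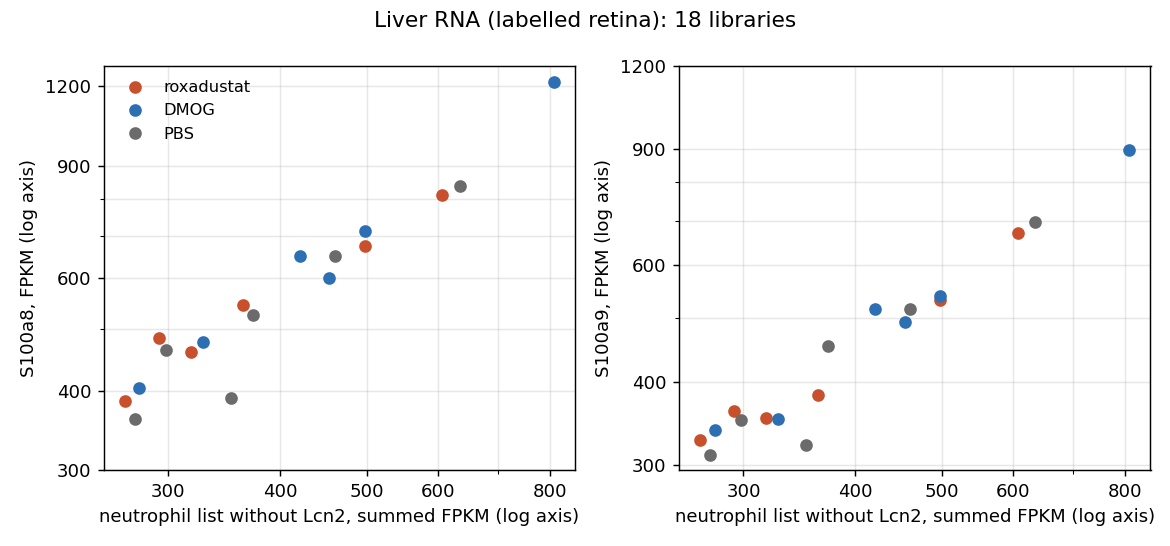
S100a8 (left) and S100a9 (right) in FPKM against the summed level of the neutrophil list without Lcn2 in FPKM, both axes logarithmic, for the 18 libraries of liver RNA. Each point is a library, coloured by treatment. The 3 treatments are mixed along the trend, and DMOG replicate 2, with 1217 FPKM of S100a8, is highest on all axes.

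The calprotectin pair, which moved together in liver RNA, is shown by its promoters in the same RefSeq windows and with the same capitals. S100a8 lies at chr3:90668821-90669120 on the plus strand and S100a9 at chr3:90695672-90695971 on the minus strand, both in build GRCm38.p6.
S100a8: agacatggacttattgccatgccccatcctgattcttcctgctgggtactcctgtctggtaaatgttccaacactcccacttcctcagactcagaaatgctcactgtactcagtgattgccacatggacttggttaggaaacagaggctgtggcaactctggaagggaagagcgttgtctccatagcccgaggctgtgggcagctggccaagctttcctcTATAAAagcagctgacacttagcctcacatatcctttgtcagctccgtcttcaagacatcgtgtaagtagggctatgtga
S100a9: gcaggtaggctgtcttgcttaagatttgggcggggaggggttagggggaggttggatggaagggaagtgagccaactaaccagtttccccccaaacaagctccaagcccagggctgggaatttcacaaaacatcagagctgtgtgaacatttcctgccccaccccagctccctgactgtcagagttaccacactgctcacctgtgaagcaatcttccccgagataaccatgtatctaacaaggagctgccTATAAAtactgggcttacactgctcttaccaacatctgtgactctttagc
Each window holds TATAAA, 30 bases before the annotated start in S100a8 and beginning at the annotated start base in S100a9. Neither holds ACGTG or GCGTG on either strand.

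S100a11 came nearest to a call in liver RNA. It had 22.4 to 35.6 FPKM with roxadustat (median 28.5), 25.4 to 35.1 FPKM with DMOG (median 32.5) and 19.95 to 28.9 FPKM with PBS (median 25.4). The groups overlapped, and 6 of 6 DMOG libraries lay above the PBS mean. The value was 0.30 with DMOG (SE 0.12, adjusted p = 0.0757 in limma) and 0.21 with roxadustat (SE 0.12, adjusted p = 0.342). Without DMOG replicate 5 the DMOG value was 0.34 (adjusted p = 0.0345), past the threshold.

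S100a4 and S100a6 had positive values with both drugs in liver RNA, none of them called. S100a4 averaged 7.79 ± 2.73 FPKM with roxadustat, 7.83 ± 2.78 FPKM with DMOG and 5.82 ± 1.65 FPKM with PBS (SD, n = 6 each). S100a6 averaged 14.6 ± 5.12, 14.6 ± 3.53 and 11.4 ± 3.57 FPKM in the same groups. The log2 fold changes of S100a4 were 0.35 with roxadustat (SE 0.27, adjusted p = 0.512 in limma) and 0.36 with DMOG (SE 0.27, adjusted p = 0.355), and those of S100a6 were 0.31 and 0.36. Of 13 stellate cell and fibroblast markers tested there, 3 fell with roxadustat (Pdgfrb, Col1a2 and Col3a1) and 1, Des, fell with DMOG. These are 23.1% of the list with roxadustat, against 2.02% of all genes called lower, and 7.69% with DMOG, against 11.7% of all genes called lower. The lens list summed to at most 1.799 FPKM in liver RNA.

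The other members of liver RNA lay close to PBS. S100a10 had 55.5 to 78.6 FPKM with roxadustat, 54.4 to 74.8 FPKM with DMOG and 53.6 to 72.8 FPKM with PBS, with log2 fold changes of 0.10 (SE 0.10) and 0.03 (SE 0.10). S100a16 was -0.16 with roxadustat (SE 0.10, adjusted p = 0.437 in limma) and -0.02 with DMOG. S100a13 was 0.17 with roxadustat (SE 0.10, adjusted p = 0.357) and 0.01 with DMOG. S100a1 was -0.07 with roxadustat and 0.04 with DMOG (SE 0.13 each). S100b, not tested, had at most 0.115 FPKM.

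Among the annexins that S100 proteins bind, Anxa2 rose with both drugs and Anxa5 with DMOG in liver RNA, while Anxa1, Anxa6 and Anxa11 were not called. Of 26 partner and receptor genes, 22 were tested there. With roxadustat 1 was called (4.55%, against 4.19% of all genes), and with DMOG 3 were called (13.6%, against 20.0% of all genes), so the list as a whole was near or under the share over all genes. With DMOG 2 of these rose and 1, Syt1, fell, with 0.532 ± 0.320 FPKM in DMOG and 1.44 ± 0.248 FPKM in PBS libraries (SD, n = 6 each). The list medians were -0.04 with roxadustat and 0.13 with DMOG. Anxa2, the annexin that binds S100A10, had 84.7 to 122 FPKM with roxadustat (median 105), 76.2 to 122 FPKM with DMOG (median 111) and 57.2 to 66.3 FPKM with PBS (median 64.4). Neither drug's libraries overlapped those of PBS. Anxa2 rose by 0.73 with roxadustat (SE 0.11, adjusted p = 0.00117) and by 0.76 with DMOG (SE 0.11, adjusted p = 0.000792), while S100a10 gave 0.10 and 0.03.

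Anxa5, which binds phosphatidylserine on dying cells, had 58.1 to 80.7 FPKM with roxadustat (median 72.6), 49.4 to 103 FPKM with DMOG (median 88.9) and 49.4 to 60.5 FPKM with PBS (median 52.7) in liver RNA. It rose by 0.65 with DMOG (SE 0.14, adjusted p = 0.00447 in limma). DMOG replicate 5, with 49.38 FPKM, lay just under the lowest PBS library, with 49.40 FPKM, and the other 5 DMOG libraries lay above the PBS range. With roxadustat the value was 0.39 (SE 0.14, adjusted p = 0.126), not called. In retina RNA 20 of the 26 partner genes were tested and 0 were called with either drug, with list medians of -0.03 for roxadustat and -0.10 for DMOG. Over all genes there, 2.34% were called with roxadustat and 1.07% with DMOG.

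**Figure D5:**
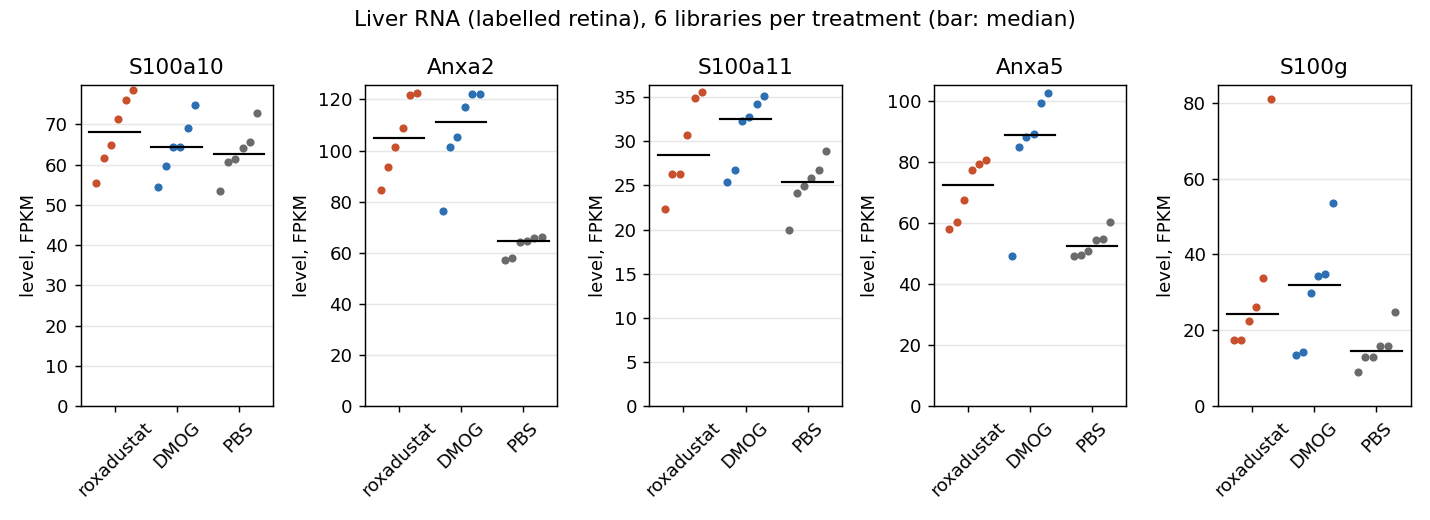
Levels in FPKM of S100a10, its partner Anxa2, S100a11, Anxa5 and S100g in liver RNA, with a linear axis from 0 in each panel. Points are libraries, 6 each for roxadustat, DMOG and PBS from left to right, and bars are medians. Anxa2 lies above the PBS range in every treated library, while S100a10 overlaps across all groups.

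The S100 rows other than the members were nearly all silent. In retina RNA none reached a mean of 0.5 FPKM, and in liver RNA S100g alone did. S100g encodes calbindin-D9k, a calcium buffer of the gut that vitamin D controls. In liver RNA it had 17.3 to 81.1 FPKM with roxadustat (median 24.3), 13.6 to 53.5 FPKM with DMOG (median 32.1) and 8.99 to 24.9 FPKM with PBS (median 14.5). The groups overlapped. The log2 fold change was 0.92 with roxadustat (SE 0.37, adjusted p = 0.177 in limma) and 0.85 with DMOG (SE 0.37, adjusted p = 0.110), neither called. Without DMOG replicate 5 the DMOG value was 1.03 (adjusted p = 0.0370).

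The drug responses were also compared between the tissues, retina RNA minus liver RNA, over the 11101 genes that passed the filter in both sets. For roxadustat 1 of 9 members differed, against 2.24% of all genes. S100a4 had a difference of -2.01 on the log2 scale (SE 0.52, adjusted p = 0.0305 in limma). That call for S100a4 was lost on leaving out any 1 of 9 libraries, PBS replicates 1, 2 and 6 or roxadustat replicates 2 and 6 of retina RNA, or PBS replicates 3 and 6 or roxadustat replicates 1 and 2 of liver RNA, with adjusted p from 0.0516 to 0.0667. For DMOG 3 of 9 members differed, against 15.9% of all genes. S100a4 had a difference of -2.68 (SE 0.52, adjusted p = 0.000784), S100a6 one of -1.74 (SE 0.34, adjusted p = 0.000970) and S100a11 one of -0.68 (SE 0.20, adjusted p = 0.0177). For S100a11 neither tissue's own DMOG value was called: it was -0.37 in retina RNA and 0.30 in liver RNA.

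With the lens sum of retina RNA as a covariate, none of these differences was called: S100a4 was -0.94 (adjusted p = 0.435 in limma), S100a6 -0.75 (adjusted p = 0.380) and S100a11 -0.17 (adjusted p = 0.782) for DMOG, and S100a4 was -1.004 (adjusted p = 0.409) for roxadustat. S100a8 and S100a9, near 0 in retina RNA, had roxadustat differences of 1.18 (SE 0.39, adjusted p = 0.101) and 1.24 (SE 0.43, adjusted p = 0.126), not called. Both passed the filter in retina RNA only through its roxadustat libraries, so nothing is read from the direction of these differences.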

How the data were processed

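Expression was taken from the deposited tables of 36 libraries, 1 table per label, whose values are FPKM per the file headers. Per the submitters' processing notes, bcl2fastq 1.8.3, TopHat2 2, Cuffdiff 2.2.1 and mouse build mm9 were used. The annotation, scaling and strand setting are not given in the sources used here. A row of totals was left out.

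From these values, genes averaging 0.5 FPKM or more in 18 libraries were fitted as log2(FPKM + 0.5) with limma 3.58.1 (R 4.3.3), as 3 group means with empirical Bayes and a mean trend. Tests were two-sided and adjusted by Benjamini-Hochberg at 0.05 over all 13779 (labelled liver) or 12657 (labelled retina) genes. The fit was also run on simulated data with each gene drawn independently. Those data hold no shared lens difference, so that run does not bear on the S100a4 and S100a6 calls. The difference between labels was fitted over all 36 libraries. All members were named, with up to 4 list genes of smallest adjusted p and, per called member, the 3 most similar genes. The members and lists were chosen with earlier results of these data known. Depth is unknown, so no counting intervals are given. Promoters are RefSeq's (GRCm38.p6), and no coordinate was matched to the mm9 files. Figures used Python 3.11.15 and matplotlib 3.10.9.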

Additional observations from a re-analysis of the deposited data

Results flagged for a closer look

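In 60 groups of 6 libraries (each tested S100 gene by treatment and tissue, S100g included), 11 had a highest or lowest library set apart from the rest by more than Dixon's 95% limit. Chance gives about 1 in 20 for independent groups of normally spread values. These are FPKM without a log scale and the groups share libraries, so 11 of 60 cannot be set against that rate. In retina RNA, roxadustat replicate 1 was apart for S100a4, at 17.6 FPKM with the next at 3.90, and for S100a6, at 19.96 FPKM with the next at 11.1; it is also the roxadustat library with the highest lens sum. Roxadustat replicate 3 was apart for S100a9, at 3.83 FPKM, and PBS replicate 5 for S100a9, at 0.542 FPKM. PBS replicate 1 was apart for S100a10, at 88.9 FPKM, and for S100b, at 13.6 FPKM. DMOG replicate 1 was the low library for S100a13, at 3.01 FPKM.

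In liver RNA, roxadustat replicate 3 was apart for S100g, at 81.1 FPKM with the next at 33.7. DMOG replicate 2 was apart for S100a9, at 895 FPKM with the next at 539. PBS replicate 1 was apart for S100a6, at 18.5 FPKM, and PBS replicate 5 was low for S100a16, at 20.5 FPKM.

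The response differed between the tissues, retina RNA minus liver RNA, for S100a4 with roxadustat (-2.01) and for S100a4 (-2.68), S100a6 (-1.74) and S100a11 (-0.68) with DMOG, all on the log2 scale and past the adjusted threshold in limma. With the lens sum as a covariate none of these differences passed the threshold.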

How the results depend on the processing

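Of 12 alternatives other than leaving out a library, 11 kept the 2 members called with DMOG in retina RNA, and all 12 kept 0 called in roxadustat against DMOG and in each comparison of liver RNA. With the lens sum as a covariate, chosen after seeing the data, 0 members were called with either drug in retina RNA and 0 differed between tissues for either drug. That covariate also turned S100a10 with DMOG to 0.0384, S100a11 to 0.14 with DMOG and 0.25 with roxadustat, S100a4 in roxadustat against DMOG to -0.0683, and the tissue differences of S100a10 for DMOG to 0.0075 and of S100a11 for roxadustat to 0.0319, none of them called. With roxadustat in retina RNA, 3 members were called with a pseudocount of 0.1 (S100a9 added, adjusted p = 0.0474 in limma), 1 without a filter, 1 with a mean of at least 5 FPKM (where S100a8 is not tested), 1 with robust empirical Bayes and 0 with the groups compared alone; S100a4 then had adjusted p of 0.0661, 0.0736 and 0.125 in limma without a filter, robustly and alone. The tissue difference for roxadustat counted 2 members with a pseudocount of 0.1 and 2 with sex as a covariate. The cause was not tested. Leaving out each library in turn gave 0 to 3 members called with roxadustat and 2 to 2 with DMOG in retina RNA, 0 to 1 with DMOG in liver RNA, and 0 to 1 (roxadustat) and 3 to 3 (DMOG) for the tissue differences. Without PBS replicate 1, S100a10 with roxadustat in retina RNA turned to 0.0319; leaving out each library in turn gave it a range of -0.1831 to 0.0319. Replicate numbers gave no clear pairing of the libraries, as residual correlations of same-numbered libraries ran from -0.333 to 0.546. Their means per pair of treatments ran from -0.092 to 0.13, against -0.024 to 0.02 for libraries with unlike numbers. Some pairing is not excluded by these values. With replicate as a block, 2 members were called with each drug in retina RNA, 0 in liver RNA. Without read counts the depth is unknown, and the low levels of S100a8 and S100a9 in retina RNA rest on few fragments. A change of sign within 1 SE of a value not called was counted as no change.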
